A study of Arabidopsis thaliana with 4 samples.

Results

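A set of 5 genes of redox control and the oxidative stress response were followed in Arabidopsis thaliana rosettes: MSRB9 (AT4G21850), the glutaredoxin gene AT4G15700, STZ (AT1G27730, also called ZAT10), NDB2 (AT4G05020) and AT2G21640 (UPOX). They are 5 of the 13286 genes that have a probe set of their own in the annotation used here, and each has 1 probe set. The DEX plants were sprayed with 30 µM dexamethasone (DEX), a steroid that switches the construct on, and the mock plants with 0.05% ethanol. All plants were 46 days old, of the C24 background, and carried the same construct for inducible overexpression of ORS1, so the controls are transgenic too. Whole rosettes were harvested 5 h after spraying and measured on Affymetrix ATH1 arrays, 2 per group. The labels do not give the promoter or receptor of the construct, the number of independent lines or the plants behind each array. There was no DEX-treated group without the construct, so responses to ORS1 and to DEX itself cannot be told apart. The labels call the samples biological replicates, and p-values measure only the spread between these samples.

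ORS1 is a NAC transcription factor that promotes leaf senescence and whose gene responds to hydrogen peroxide. Hydrogen peroxide and other reactive oxygen species accumulate as leaves age, oxidising thiols and methionines in proteins. Glutaredoxins and methionine sulfoxide reductases undo such oxidations, mitochondrial alternative dehydrogenases relieve the electron transport chain, and zinc finger repressors such as STZ act in the transcriptional response to stress.

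The genes were chosen by their DEX and mock values, or with those values known, so the values are a description. MSRB9 and AT4G15700 were taken because they passed the test over the whole table, and STZ, NDB2 and AT2G21640 because they were the measured genes of an earlier hydrogen peroxide list. That test was limma with Benjamini-Hochberg adjustment over 19883 probe sets, and a probe set with an adjusted p under 0.05 is here called. In that test the adjusted p was 0.022 for MSRB9, 0.00516 for AT4G15700, 0.529 for STZ, 0.89 for NDB2 and 0.962 for AT2G21640. Thus 2 of the 5 were called as higher after DEX, where 0.246% of all tested probe sets were, a comparison that the choice itself fixed. No probe set used here is paired with ORS1, so the induced gene was not analysed here. All values below are log2 expression values from GCRMA, and differences are DEX minus mock on that scale.

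MSRB9, a B-type methionine sulfoxide reductase that turns the R form of methionine sulfoxide in proteins back to methionine, was about 3-fold higher after DEX. Its values were 8.95 and 8.85 on the DEX arrays, against 7.09 and 7.53 on the mock arrays. The groups lay 1.32 log2 units apart at their closest, and the DEX pair was tighter (SD 0.066) than the mock pair (SD 0.31, n = 2 each). The difference was 1.59 ± 0.21 (SE), or 3.01-fold, and ranked 16 among the 19883 tested probe sets. Leaving out mock replicate 1, the lower mock array, gave 1.37, and leaving out mock replicate 2 gave 1.81.

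AT4G15700 encodes a glutaredoxin of the CC type, a class found in land plants, and was higher after DEX by nearly the same amount. Its probe set read 5.39 and 5.37 on the DEX arrays, against 3.77 and 3.85 on the mock arrays. Both pairs were tight (SD 0.017 for DEX and 0.056 for mock) and the gap between them was 1.52. The difference of 1.57 ± 0.12 (SE), or 2.96-fold, had the smallest SE of the 5. Both mock values were below 4, the level that 2 arrays had to reach for a test. The probe set was therefore tested only through its DEX arrays, and with all 4 arrays required to reach that level it was not tested. GCRMA compresses differences near the background, so the fold may be understated. The spread of the mock pair, and with it the SE, may be understated for the same reason.

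STZ encodes a zinc finger protein that represses transcription and whose gene is induced by salt, cold and strong light. It read 7.29 and 7.69 on the DEX arrays, against 6.58 and 7.20 on the mock arrays. The groups did not overlap, but only 0.091 log2 units separated the lower DEX array from the higher mock array, less than the SD of either pair (0.28 for DEX, 0.44 for mock). The difference was 0.60 ± 0.24 (SE), 1.52-fold, and was not called. It was 0.29 without mock replicate 1 and 0.91 without mock replicate 2. Over all settings it passed only in the last of these, with the mock group at 1 array. Its own spread there came from the DEX pair, moderated over all tested probe sets.

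NDB2 is an external NAD(P)H dehydrogenase of the inner mitochondrial membrane that feeds electrons into the transport chain without pumping protons. Its values were 7.55 and 7.88 on the DEX arrays, against 7.72 and 7.39 on the mock arrays. The groups overlapped, and the difference of 0.16 ± 0.21 (SE) was smaller than the SD of each pair (0.23 in both). It ranged from -0.0024 to 0.32 when 1 array was left out.

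AT2G21640, named UPOX for its upregulation by oxidative stress, encodes a mitochondrial protein and serves as a marker of oxidative stress. It read 6.06 and 6.08 on the DEX arrays, against 5.72 and 6.27 on the mock arrays. The DEX values (SD 0.016) lay inside the mock pair (SD 0.39). The difference was 0.076 ± 0.19 (SE), and it was -0.20 without mock replicate 1 and 0.35 without mock replicate 2.

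**Figure D1:**
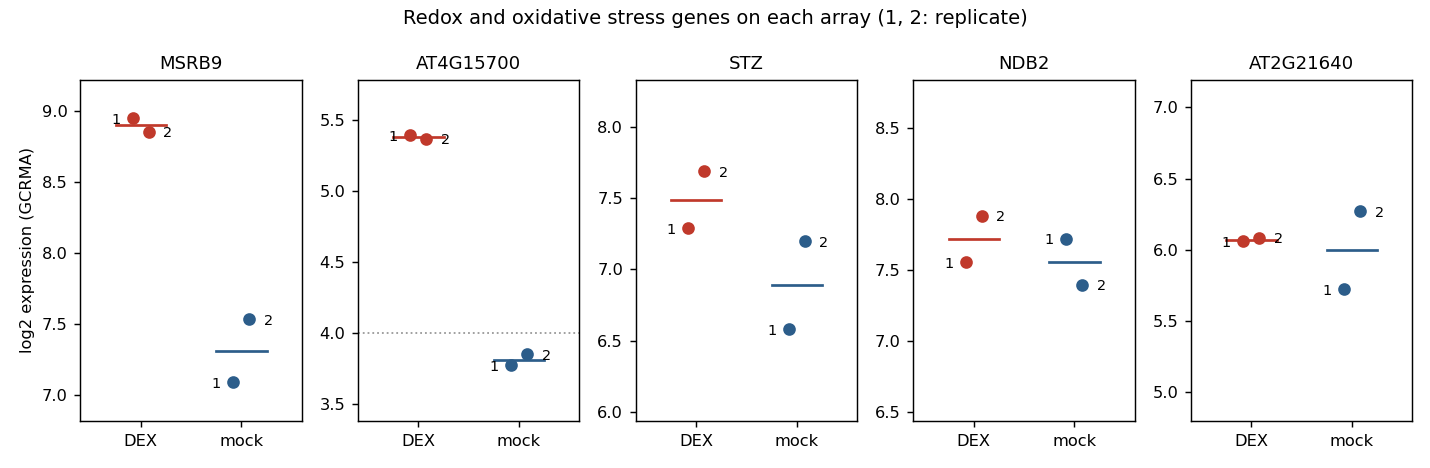
The log2 expression value (y axis, GCRMA) of each of the 5 genes is plotted on the DEX arrays (red) and the mock arrays (blue), numbered by replicate, with a line at the group mean. Every panel spans the same height, and the dotted line marks 4, the level of the filter. MSRB9 and AT4G15700 show a gap of over 1 log2 unit between the groups, STZ a gap of 0.091, and NDB2 and AT2G21640 overlap.

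In 3 of the 5 genes the groups did not overlap and DEX was higher; among all tested probe sets 18.1% were so. The differences of NDB2 and AT2G21640 lay closer to each other than the SE of either. In 4 of the 5 mock replicate 1 read below mock replicate 2, NDB2 being the exception, whereas 45.6% of all tested probe sets did so.

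The arrays carried a trend with gene length that moves with these values. The DEX arrays differed from each other by an SD of 0.21 over all tested probe sets and the mock arrays by 0.37. A nuclear gene with a span in the RefSeq table was known for 11284 tested probe sets. MSRB9, AT4G15700, STZ and AT2G21640 (767 to 1366 bp) belong to the shortest 20% of these. There mock replicate 1 lay a median of 0.17 below the mean of the 4 arrays (-0.17), and the median DEX-minus-mock difference was 0.10. NDB2, at 4173 bp, belongs to the longest 20%, where these medians were 0.18 and -0.083. With the trend removed the differences were 1.46 for MSRB9, 1.38 for AT4G15700, 0.47 for STZ, 0.25 for NDB2 and -0.050 for AT2G21640. MSRB9 and AT4G15700 remained called (limma adjusted p = 0.0015 and 0.0024), and the other 3 were not.

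**Figure D2:**
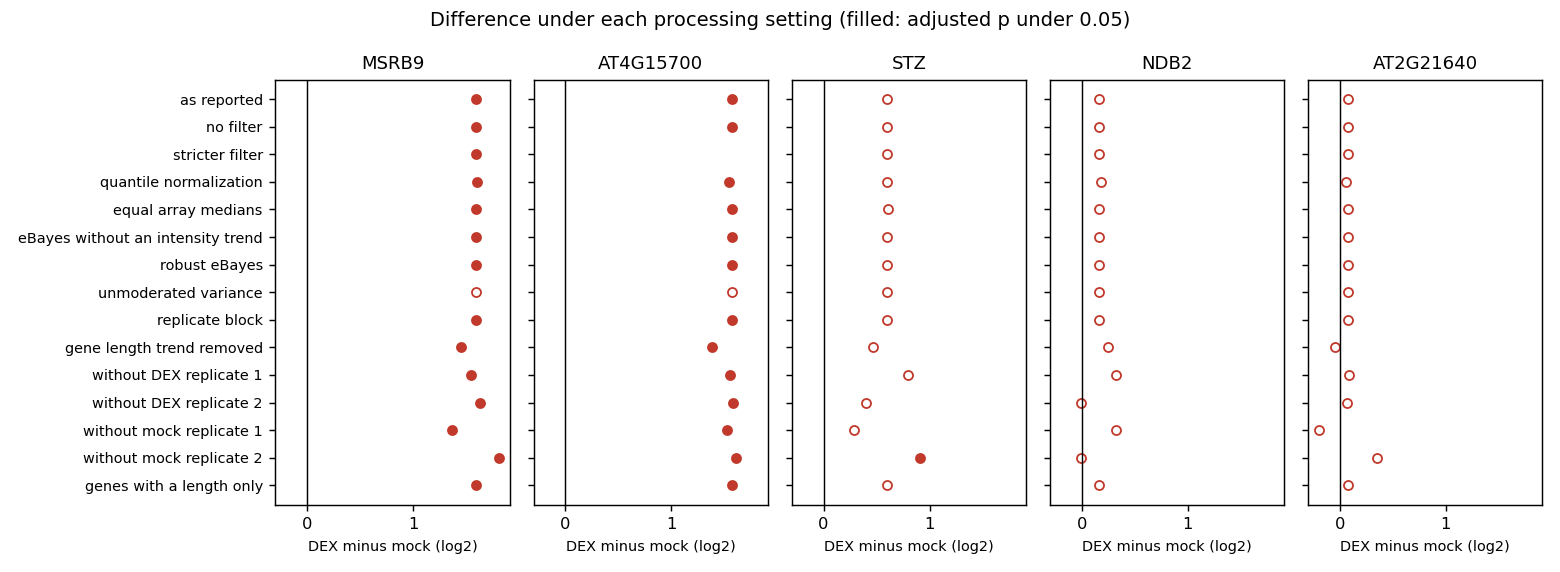
The DEX-minus-mock difference (x axis, log2) of each of the 5 genes is shown under each processing setting (rows), filled where the adjusted p was under 0.05. MSRB9 stays between 1.37 and 1.81 and AT4G15700 between 1.38 and 1.61, with no point for the stricter filter, whereas STZ runs from 0.29 to 0.91 and AT2G21640 crosses 0.

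AT4G15660, AT4G15670, AT4G15680, AT4G15690 and AT4G15700 follow each other on chromosome 4 and encode closely similar CC-type glutaredoxins, studied for their response to nitrate. Probe sets paired with 4 of the 5 alone were measured here, AT4G15700 among them. In these 4 the groups did not overlap and DEX was higher, as in 18.1% of all tested probe sets, but AT4G15700 was itself chosen for its difference. AT4G15680 read 8.20 and 7.95 on the DEX arrays, against 7.00 and 6.44 on the mock arrays. Its difference of 1.36 ± 0.23 (SE) missed the threshold narrowly (limma adjusted p = 0.054). With 1 array left out the difference ran from 1.08 to 1.64. Over all settings its adjusted p ran from 1.17e-07, with a replicate block, to 0.763, with an unmoderated variance.

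AT4G15690 read 5.56 and 4.87 on the DEX arrays, against 3.99 and 4.31 on the mock arrays, a difference of 1.07 ± 0.22 (adjusted p = 0.116). AT4G15660, singled out for its position, read 4.73 and 4.74 on the DEX arrays, against 4.26 and 4.29 on the mock arrays, a difference of 0.46 ± 0.11 (adjusted p = 0.199). None of these neighbours was called, and signal shared between such similar transcripts was not tested. AT4G15710, the next gene on the other side of AT4G15700 and not on the glutaredoxin list, differed by 0.094 ± 0.12 (adjusted p = 0.891).

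Of 30 listed glutaredoxin genes 19 were tested, and AT4G15700 alone was called. Of the 18 others 0 passed in limma, 7 had an unadjusted p under 0.05 (8.78% of all tested probe sets did), and 13 had positive differences. The 7 include the gene with the lowest difference, which was lower after DEX, while the others of the 7 were higher. The median of the 18 was 0.34, beside -0.012 over all tested probe sets, and they ran from -0.57 to 1.36. GRX480, which binds TGA transcription factors and is induced by salicylic acid, read 9.14 and 9.20 on the DEX arrays, against 7.51 and 8.36 on the mock arrays. Its difference was 1.23 ± 0.28 (SE; adjusted p = 0.163).

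AT5G18600, another CC-type gene, read 9.75 and 9.60 on the DEX arrays, against 8.26 and 8.95 on the mock arrays, a difference of 1.07 ± 0.26 (adjusted p = 0.189). With the length trend removed GRX480 and AT5G18600 passed (limma adjusted p = 0.0225 and 0.0322). Over all settings the adjusted p ran from 7.6e-05 to 0.833 for GRX480 and from 0.00177 to 0.826 for AT5G18600. Beside this family stands the uneven mock pair: mock replicate 1 read below mock replicate 2 in 17 of the 18. Their median was 0.057 without mock replicate 1 and 0.49 without mock replicate 2, and 0.21 with the length trend removed.

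**Figure D3:**
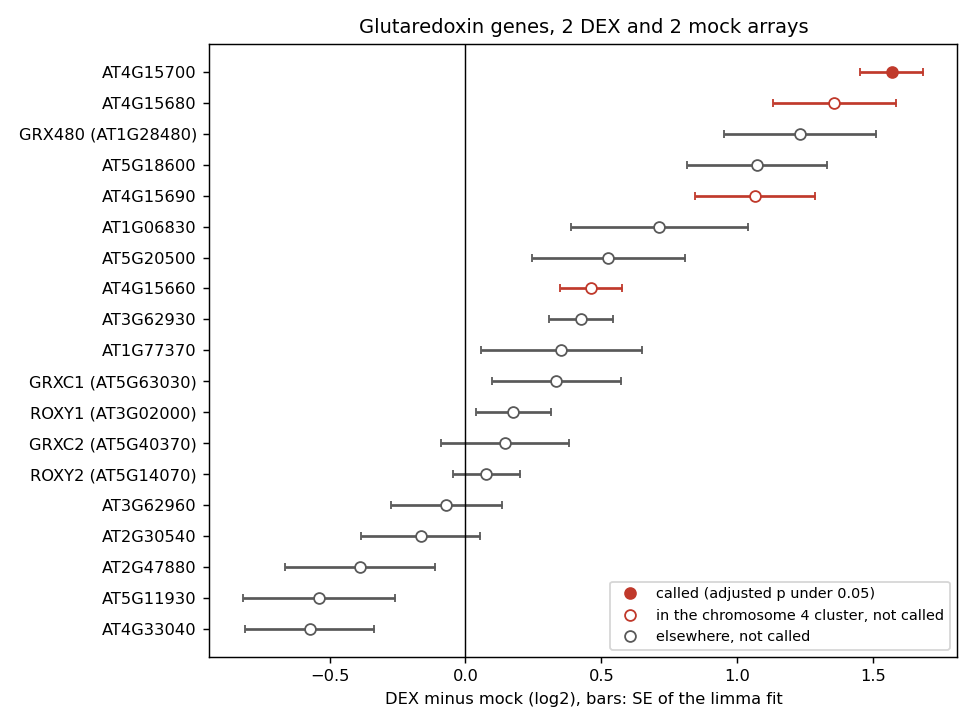
Each of the 19 tested glutaredoxin genes is placed by its DEX-minus-mock difference (x axis, log2; bars are SEs of the limma fit on 2 DEX and 2 mock arrays). AT4G15700 is the 1 filled point, and the red points, genes of the chromosome 4 cluster, run from 0.46 to 1.57.

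Among the methionine sulfoxide reductases, 5 of 14 listed genes were tested and MSRB9 alone was called. The 4 others all had positive differences, with a median of 0.29. None was called in limma, and 1 had an unadjusted p under 0.05. MSRB6 read 10.02 and 9.92 on the DEX arrays, against 9.11 and 9.55 on the mock arrays, a difference of 0.64 ± 0.22 (SE; adjusted p = 0.408). MSRB3, MSRB5 and MSRA5 differed by 0.37, 0.22 and 0.19, and on all 4 genes mock replicate 1 read below mock replicate 2. Without mock replicate 1 their median was 0.067, with MSRB3 at 0.025 and MSRB5 at -0.20. Without mock replicate 2 it was 0.68, with MSRB3 at 0.71 and MSRB5 at 0.64, and 3 of the 4 passed (MSRB3, MSRB5 and MSRB6). MSRB7, MSRB8 and MSRB2 lie next to MSRB9 on chromosome 4 and were not analysed here. Signal shared between their transcripts and that of MSRB9 was not tested.

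STZ had 1 tested relative among 11 listed zinc finger genes: AT2G28200 (ZAT5) differed by -0.055 ± 0.13 (SE; adjusted p = 0.958). For NDB2, 5 of 12 listed genes of alternative respiration were tested and 0 were called in limma. Of these 5, 0 had an unadjusted p under 0.05, as 8.78% of all tested probe sets did. The related dehydrogenases NDB1, NDB3 and NDB4 differed by 0.032, 0.017 and 0.15, and NDC1 by -0.30 ± 0.22 (adjusted p = 0.769). In all 5 the groups overlapped.

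AT2G21640 was listed with 12 further markers of oxidative stress and mitochondrial dysfunction, and 6 of the 13 were tested. AT1G19020, a small protein gene that responds to many oxidative treatments, rose to 7.01 and 7.29 on the DEX arrays, against 4.84 and 5.82 on the mock arrays. Its difference of 1.82 ± 0.29 (SE) was called (adjusted p = 0.0478). It missed the threshold with all probe sets tested, the stricter filter, quantile normalization, no intensity trend, an unmoderated variance and genes with a length only (adjusted p = 0.0548 to 0.792), and passed in the other settings. AT1G05340, a marker of the same kind, overlapped between groups, with 8.30 and 8.22 on the DEX arrays, against 7.44 and 8.46 on the mock arrays. AT5G09570, which encodes a twin-cysteine mitochondrial protein, differed by -0.067, AT2G41380 by 0.13 and AT2G04050 by -0.14, and none of these was called.

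The few tested enzymes that remove or make reactive oxygen showed small differences. Of 44 listed antioxidant enzymes 9 were tested, with a median of -0.020. Of 21 thioredoxins and their reductases 7 were tested, with a median of 0.16, and of 10 NADPH oxidases 1 was tested. That 1, AT1G19230 (RBOHE), was dim, with 4.32 and 4.01 on the DEX arrays against 4.09 and 4.14 on the mock arrays. In each of these lists 0 genes were called in limma and 0 had an unadjusted p under 0.05. Over all tested probe sets 0.246% were called as higher and 8.78% had such a p. In lists this short, counts of 0 say little. SRX, the sulfiredoxin that restores over-oxidised peroxiredoxins, differed by 0.36 ± 0.28 (SE), with 9.32 and 9.30 on the DEX arrays against 8.52 and 9.39 on the mock arrays. The glutathione reductases GR1 and GR (AT3G54660) differed by -0.24 and -0.17, PRXIIF, a mitochondrial peroxiredoxin, by 0.18 and TRXF2, a plastid thioredoxin, by 0.24. Over the 49 tested redox genes other than the 5, 1 was called and the median was 0.14. That median was -0.015 without mock replicate 1 and 0.25 without mock replicate 2.

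**Figure D4:**
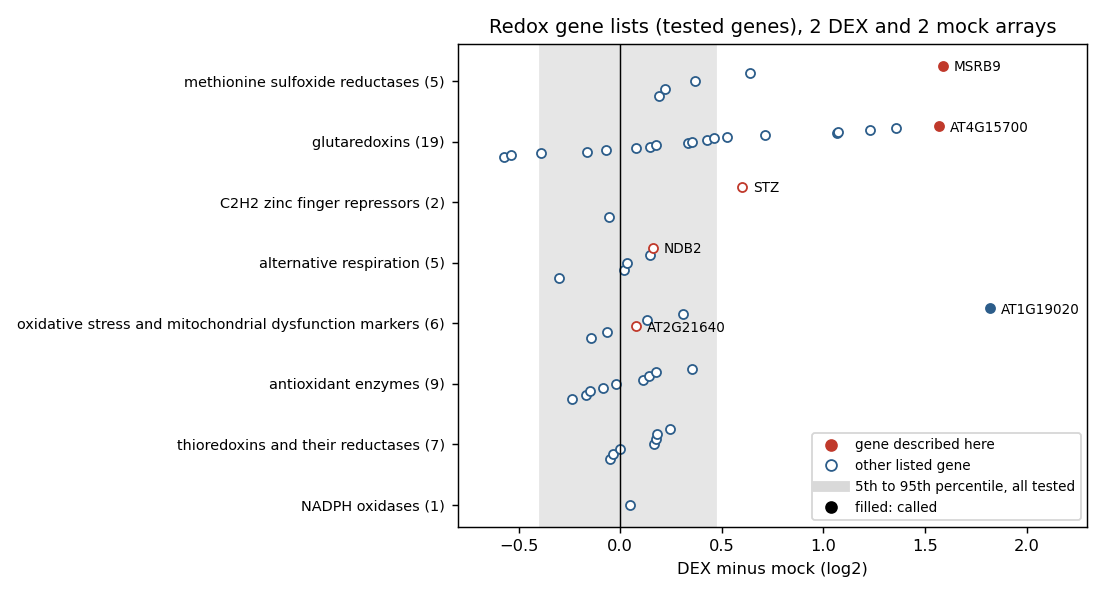
Tested genes of 8 redox lists (rows, number tested in brackets) are placed by their DEX-minus-mock difference (x axis, log2; 2 arrays per group). The 5 genes described here are red, other genes blue, called genes filled, and the grey band holds the 5th to 95th percentile of all tested probe sets (-0.39 to 0.47). MSRB9, AT4G15700 and AT1G19020 are the filled points, and NDB2 and AT2G21640 lie inside the band with all 9 antioxidant genes.

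The genes whose pattern over the 4 arrays lay closest were found by Euclidean distance between values centred on each gene's mean, among 11397 probe sets with 1 gene. Closest to MSRB9 were PDF1.4, a defensin gene (distance 0.146), and AT2G32190 (0.21). Closest to AT4G15700 were OSM34, an osmotin-like gene (0.112), and AT3G13950 (0.224). PDF1.4 had 7.66 and 7.67 on the DEX arrays against 5.76 and 6.38 on the mock arrays, so it shares the lower mock replicate 1 with MSRB9. OSM34 had 7.66 and 7.62 on the DEX arrays against 6.01 and 5.98 on the mock arrays, with even pairs as for AT4G15700. Such likeness follows from the choice of these genes by distance. For STZ these were AT5G56100 and AT5G59080 (0.0619 and 0.0648), for NDB2 AT2G33680 and AT1G18390 (0.0263 and 0.0529), and for AT2G21640 AT2G19340 and AT2G24440 (0.0284 and 0.0353). None of these last 6 was called.

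For the sampled tissue, 5 of 8 leaf mesophyll markers were tested and read 11.48 to 13.42, near the top of the scale (13.62). Root markers (3 of 4 tested) read 5.13 to 9.67, among them PYK10 at 9.62 and 9.32 on the DEX arrays against 9.67 and 8.92 on the mock arrays. The guard cell regulator FMA (FAMA) read 5.97 and 6.26 on the DEX arrays against 6.78 and 6.39 on the mock arrays. None of these markers was called with all 4 arrays; FMA, at -0.47 ± 0.19 (SE), passed without mock replicate 2 (-0.67, limma adjusted p = 0.0414) and was at -0.28 without mock replicate 1. Floral markers were not analysed here, and the part of these markers in the redox values was not tested. In whole rosettes, a difference in the share of a cell type and one in RNA per cell cannot be told apart.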

How the data were processed

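The deposited values are log2 expression values, 1 per probe set and array, made by the authors with GCRMA, per the submitters' processing notes, which name no version or options. The scale was read from GCRMA and from the values (2.59 to 13.62, array medians 6.51 to 6.55). No depth exists for arrays; their number limits the precision. Of 22810 probe sets, 64 controls and 2863 with fewer than 2 arrays at 4 or more were left out. DEX and mock were compared on the 19883 others with limma 3.58.1 under R 4.3.3 (lmFit, eBayes with an intensity trend, no covariate, two-sided), with Benjamini-Hochberg adjustment over all of them and a threshold of 0.05. The test was checked on simulated data. Those data had independent noise of equal spread in both groups, unlike the uneven pairs here. SEs are moderated and SDs come from each pair.

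Genes came from the platform annotation, with symbols and gene spans from RefSeq (TAIR10.1): 13513 non-control probe sets had 1 gene, 503 several, and 8730 were unlisted. The length trend was removed by loess (span 0.5) of each array's deviation on log2 span. Named genes are the 5 members, called list genes and up to 4 others per list by size of difference, and the 2 closest patterns per member; other genes are said to be singled out by position. The members and lists were chosen with earlier results of these data known. Replicate numbers mark no shared origin in the labels; the 2 replicate differences correlated by 0.108 over probe sets. Alternatives covered the filter, normalization, variance model, replicate block, gene length and each array.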

Additional observations from a re-analysis of the deposited data

How the results depend on the processing

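MSRB9 and AT4G15700 kept direction and call in every setting that tested them except an unmoderated variance. In that fit MSRB9 (1.59, adjusted p = 0.73) and AT4G15700 (1.57, adjusted p = 0.604) missed, as 2 residual degrees of freedom carry it alone. With the stricter filter AT4G15700 was not tested. Leaving out 1 array gave 1.37 to 1.81 for MSRB9, 1.53 to 1.61 for AT4G15700, 0.29 to 0.91 for STZ, -0.0024 to 0.32 for NDB2 and -0.20 to 0.35 for AT2G21640, which was also at -0.050 with the length trend removed. Against 49 rises and 40 falls over all probe sets, there were 27 and 24 without an intensity trend, 80 rises with robust eBayes, 0 and 0 with an unmoderated variance, and 15 and 9 among genes with a length only, a setting added after the data were seen. With any 1 array omitted, rises numbered 112 to 1803 and falls 50 to 1388. With a replicate block there were 438 rises and 237 falls; MSRB9 and AT4G15700 stayed called, STZ, NDB2 and AT2G21640 did not pass, and 6 other redox genes were called, the 5 new ones glutaredoxins (AT4G15660, AT4G15680, AT4G15690, AT5G18600 and GRX480). Against 1 other redox gene called (AT1G19020), 0 were with no filter, the stricter filter, quantile normalization, no intensity trend, an unmoderated variance or genes with a length only, 2 with equal array medians or robust eBayes, 3 with the length trend removed, and 3 to 18 with 1 array left out. The highest counts came without mock replicate 2. The cause was not tested. Signs of uncalled genes near 0 turned when 1 array was left out: MSRB5 (-0.20 to 0.64), AT2G28200 (-0.15 to 0.043), NDB4 (-0.032 to 0.33), NDB1 (-0.18 to 0.24), NDB3 (-0.080 to 0.11), AT1G05340 (-0.20 to 0.82), AT5G09570 (-0.37 to 0.24), SRX (-0.077 to 0.79), GR (-0.49 to 0.15), TRXF2 (-0.029 to 0.51), THX (-0.070 to 0.43), ty2 (-0.12 to 0.46), AT1G19230 (-0.10 to 0.20), PYK10 (-0.19 to 0.55), EXPA18 (-0.068 to 0.10), AT2G33680 (-0.0011 to 0.35), AT1G18390 (-0.063 to 0.32), AT2G19340 (-0.17 to 0.35) and AT2G24440 (-0.21 to 0.33). PSAN turned to -0.018 and EXPA18 to -0.066 with the length trend removed, and EXPA18 to -0.0027 with quantile normalization.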
